A study of Arabidopsis thaliana with 6 samples.

Results

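The envelope machinery that imports proteins into chloroplasts was described through 9 nuclear genes, of 36917 gene identifiers counted, in 6 RNA-Seq libraries of Arabidopsis seedlings. They were chosen by identifier and known role in import, with earlier results of these data known. The receptor GTPases were TOC159 (AT4G02510), TOC132 (AT2G16640), TOC120 (AT3G16620), TOC33 (AT1G02280) and TOC34 (AT5G05000). The outer envelope channel was TOC75-III (AT3G46740), and the inner envelope proteins were TIC110 (AT1G06950), TIC40 (AT5G16620) and TIC20-I (AT1G04940). The mutant group was 3 libraries of amiR-mterf2 mutant seedlings, which express an artificial microRNA (amiR) against the nuclear gene MTERF2 in the Col-0 background. The wild-type group was 3 libraries of Col-0 seedlings. Seedlings of both genotypes were sampled at an age of 6 days and grew in long days on half-strength MS medium with 1% sucrose under 100 µmol photons of white light per square metre and second. No treatment or other allele was given for either group. The study describes independent biological replicates and several independent knockdown lines, of which only amiR1-3-mterf2 is named beside its RNA-Seq data, so that the mutant group may be 1 transgenic line. As a knockdown, the mutant keeps part of the MTERF2 transcript.

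Most chloroplast proteins are made in the cytosol as precursors with a transit peptide and enter through the TOC complex of the outer envelope and the TIC complex of the inner envelope. TOC159 and TOC33 are the receptor isoforms that predominate in green tissue and are linked to the import of photosynthetic precursors. TOC132, TOC120 and TOC34 are the housekeeping isoforms, which serve precursors of other plastid functions and weigh relatively more in roots. TOC75-III forms the channel through the outer membrane. TIC110 and TIC40 recruit and coordinate chaperones on the stromal side, and TIC20-I is a channel-forming protein of the inner membrane.

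The 5 receptors share a GTP-binding domain, and its phosphate-binding loop (P-loop) is where the kinship of the isoforms can be read directly. The coding windows are printed 5′ to 3′ from the RefSeq assembly TAIR10.1, 36 bases each, with the 24 bases of the loop motif in capitals. They are shown because the isoform comparison below rests on telling these genes apart.
TOC159: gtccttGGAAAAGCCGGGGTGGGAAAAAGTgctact
TOC132: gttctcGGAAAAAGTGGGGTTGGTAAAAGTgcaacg
TOC120: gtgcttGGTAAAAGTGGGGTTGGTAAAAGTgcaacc
TOC33: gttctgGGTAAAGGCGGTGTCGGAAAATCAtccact
TOC34: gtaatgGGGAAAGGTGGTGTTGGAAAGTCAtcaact

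These windows lie in coding exons, at chr4:1107426-1107461 on the plus strand for TOC159 and on the minus strand for the other receptors, at chr2:7213340-7213375 for TOC132, chr3:5660323-5660358 for TOC120, chr1:449987-450022 for TOC33 and chr5:1475524-1475559 for TOC34. TOC132 and TOC120 had 32 of the 36 bases in common and TOC33 and TOC34 had 29, whereas TOC159 had 27 in common with TOC132 and 27 with TOC120. Over the whole proteins, TOC132 and TOC120 were 80.7% identical across 1063 aligned residues, TOC33 and TOC34 63.0% across 292, and TOC159 was 43.6% identical to TOC132 and 44.3% to TOC120. The longest stretch of identical transcript sequence was 53 bases for TOC132 and TOC120, at chr2:7213073-7213125 and chr3:5660056-5660108 on the minus strands, within both coding sequences.
Shared by TOC132 and TOC120: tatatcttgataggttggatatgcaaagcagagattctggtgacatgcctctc

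For TOC33 and TOC34 the longest shared stretch was 18 bases, and for TOC159 with any other receptor it was at most 12. Reads that lie wholly inside the 53 bases cannot be assigned between TOC132 and TOC120. The study's reads were longer than this stretch before trimming, so only shortened reads could lie there. How reads with several matches were counted is not given in the sources used here.

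Between 18004935 and 21832003 counts were assigned to genes in each library, and 3 counts, taken as the floor of detection, corresponded to 0.140 to 0.175 CPM (counts of a gene relative to the library total, scaled by edgeR's TMM factors to a common size). MTERF2, the gene the microRNA is directed against, was counted 32, 16 and 8 times in amiR-mterf2 replicates 1 to 3, against 48, 33 and 58 times in Col-0 replicates 1 to 3, with a log2 fold change of -1.15 ± 0.48 (± SE here and for every fold change) that did not pass the threshold of 0.05 (adjusted p = 0.0837, edgeR quasi-likelihood, Benjamini-Hochberg). The genotypes overlapped in CPM for this gene, at amiR-mterf2 replicate 1 and Col-0 replicate 2, and it passed when either of these was left out (adjusted p = 0.0150 and 0.0265, edgeR). Col-0 replicate 2 stood apart from the other Col-0 libraries, with a mean chi-square per nuclear gene of 25.2 and 24.3 against them, where the other pairs within a genotype gave 3.03 to 3.58. Its low counts were also distributed differently, since genes with exactly 1 count (1402) outnumbered genes with exactly 2 counts (761) in it, whereas in the 5 other libraries 1046 to 1208 genes had 2 counts and 455 to 494 had 1 count. Of the marker lists, the summed level of 6 root genes was 396 to 415 CPM in amiR-mterf2 against 990 to 1398 CPM in Col-0. Nearly all of this root sum was BGLU23, with 389 to 408 CPM in amiR-mterf2 and 974 to 1358 CPM in Col-0. The summed level of 3 genes of dividing cells was 3.27 to 5.02 CPM against 8.03 to 10.9 CPM. Of these 2 were called lower, while CYCB1-1 overlapped between the genotypes and was not called (adjusted p = 0.230, edgeR). The 5 seed storage genes summed to 16.8 to 19.9 CPM in amiR-mterf2 and 7.36 to 8.33 CPM in Col-0. Among them CRU3 had a mean of 9.13 CPM in amiR-mterf2 and 0.85 CPM in Col-0, while CRA1 had 5.89 and 6.17 CPM and was not called. The 11 leaf photosynthesis genes summed to 26183 to 26445 CPM and 20019 to 30534 CPM, the highest being Col-0 replicate 2. Of these leaf genes 2 were called higher, 3 lower and 6 not called (edgeR). Leaf markers were thus abundant in every library, while EXPA7, COBL9, TIP2-3 and NRT2.1 of the root list had 0 to 4 counts in amiR-mterf2. CASP1, also of the root list, was called lower (edgeR) but still had 109, 139 and 97 counts in amiR-mterf2. It had 318, 372 and 394 counts in Col-0. In Col-0 replicate 2 EXPA7 had 69, COBL9 176 and TIP2-3 121 counts, against at most 12 counts in the other Col-0 libraries.

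Of the 9 import genes, 6 were higher in amiR-mterf2 than in Col-0, and 0 were lower, by the quasi-likelihood F test of edgeR, with p-values adjusted over the 17902 genes tested (Benjamini-Hochberg). All 9 passed the filter on low counts. Over all genes tested, 18.1% were called higher and 18.2% lower. The 9 import genes had a median log2 fold change of 0.82, beside -0.02 for all genes tested. In TMM-scaled CPM, each amiR-mterf2 library lay above each Col-0 library in 8 of the 9, all but TOC120. This held for 25.0% of all genes. For 0 of the 9 did every amiR-mterf2 library lie below, which held for 24.4%. Relative to total counts without TMM, TOC34 and TIC20-I overlapped between the genotypes. Scaling by total counts without TMM moved the median of all genes to -0.17 and the calls to 2129 higher and 4148 lower, beside 3248 higher and 3261 lower with TMM, and left 5 of the 9 higher and 0 lower. Summed over the 9 genes, the level was 295 to 309 CPM in the amiR-mterf2 libraries and 161 to 176 CPM in the Col-0 libraries. With Col-0 replicate 2 left out, the count was again 6 higher and 0 lower. In bulk seedlings, fewer cells of a type and less RNA per cell cannot be told apart. The part of the root, seed and dividing-cell markers in these differences was not tested.

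**Figure D1:**
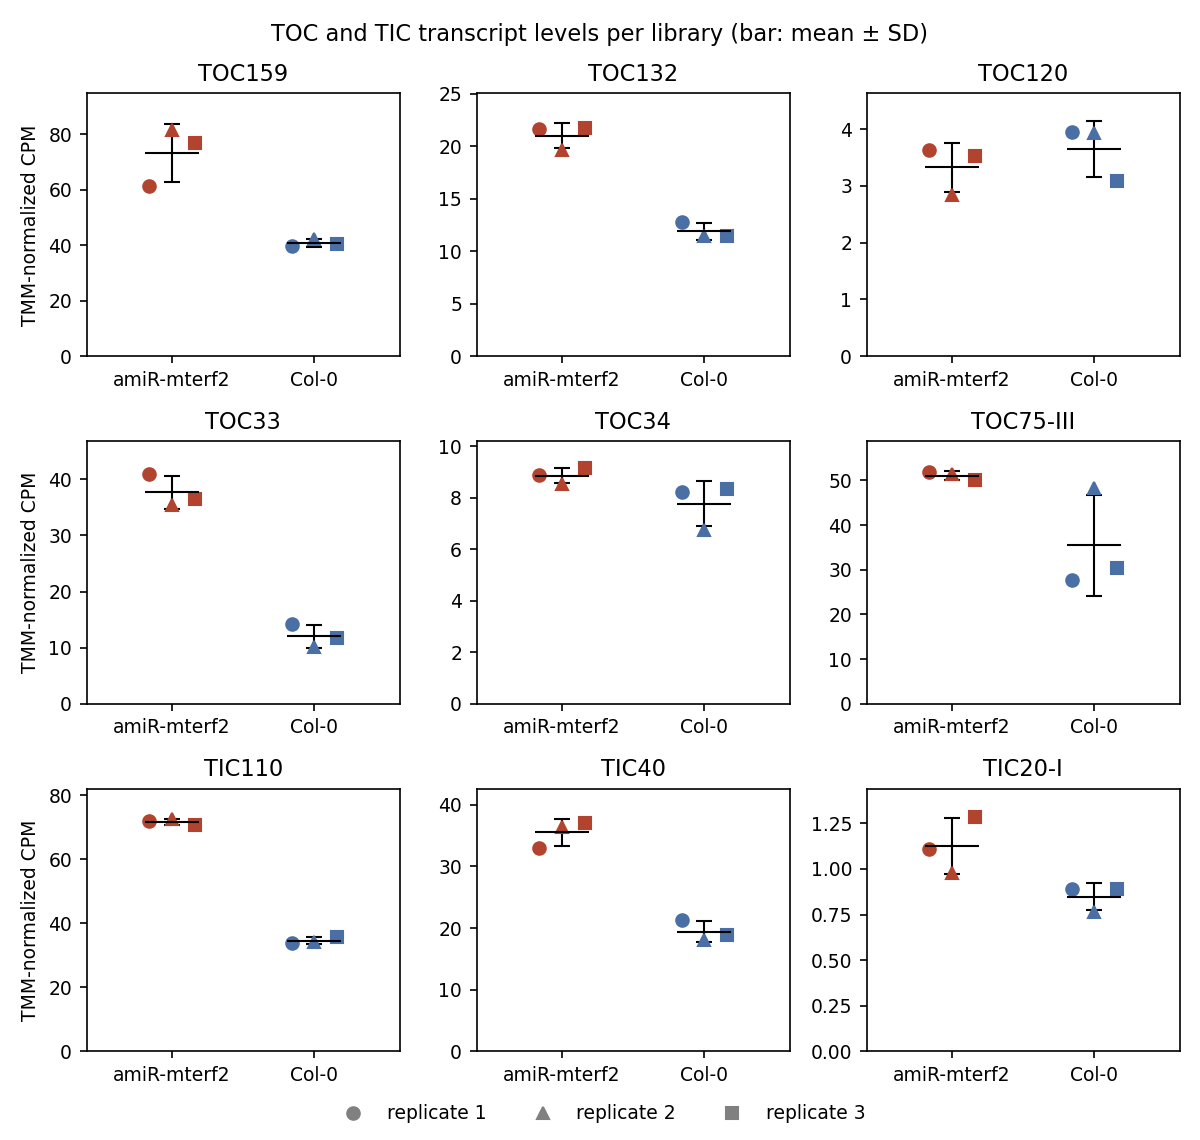
TMM-normalized CPM (vertical axes, each from 0) of the 9 import genes in the 3 amiR-mterf2 libraries (left in each panel) and the 3 Col-0 libraries (right), with symbols for the replicate and horizontal bars for the mean ± SD. The mutant points lie above the wild-type points in every panel except that of TOC120, and Col-0 replicate 2 is close to the mutant for TOC75-III.

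TOC33, the smaller of the green-tissue receptors, showed the largest difference of the 9. It had 41.0, 35.4 and 36.5 CPM in amiR-mterf2 replicates 1 to 3, against 14.2, 10.1 and 11.8 CPM in Col-0 replicates 1 to 3. The lowest mutant library was well above the highest wild-type library. The means were 37.7 ± 2.93 CPM and 12.0 ± 2.03 CPM (SD, n = 3 each), a 3.12-fold rise with a log2 fold change of 1.64 ± 0.14 (SE, adjusted p = 7.79e-06, edgeR quasi-likelihood, Benjamini-Hochberg). Its exons overlap no other annotated gene.

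TOC34, the housekeeping partner of TOC33, did not pass the test. It had 8.88, 8.54 and 9.14 CPM in amiR-mterf2, against 8.22, 6.76 and 8.33 CPM in Col-0. With TMM scaling the mutant libraries lay above the wild-type libraries by a narrow margin. The log2 fold change was 0.19 ± 0.15 (adjusted p = 0.363, edgeR quasi-likelihood, Benjamini-Hochberg). With total counts without TMM it was 0.03, and the genotypes overlapped.

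The balance of the small receptors was compared within libraries, where no scaling between libraries enters. TOC33 made up 82.2%, 80.6% and 80.0% of the counts on TOC33 and TOC34 in amiR-mterf2 replicates 1 to 3, against 63.3%, 60.0% and 58.6% in Col-0 replicates 1 to 3. The lowest 95% Wilson bound of a mutant library was 77.2% and the highest of a wild-type library 67.5%, and with the counts of the 5 libraries halved, as though both reads of a pair had been counted, these bounds were 75.9% and 69.3%. Such intervals cover counting error only. The log2 ratio of TOC33 to TOC34 averaged 2.09 ± 0.11 in amiR-mterf2 and 0.62 ± 0.15 in Col-0 (SD, as for every mean), so that the ratio was 2.75-fold higher in the mutant. Permuting the library labels exactly (two-sided) gave p = 0.1, the smallest value that 3 libraries against 3 allow (0.133 after Benjamini-Hochberg adjustment over the 4 ratios tested).

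TOC159, the large receptor of green tissue, also rose. It had 61.4, 81.6 and 76.9 CPM in amiR-mterf2, against 39.8, 42.4 and 40.5 CPM in Col-0. The wild-type libraries lay close together, and amiR-mterf2 replicate 1 was the lowest of the mutant libraries but still above all of them. The log2 fold change was 0.84 ± 0.12 (adjusted p = 3.59e-04, edgeR quasi-likelihood, Benjamini-Hochberg), from 73.3 ± 10.6 CPM in amiR-mterf2 and 40.9 ± 1.37 CPM in Col-0. Longer annotated transcripts of TOC159 share 890 exon bases, on the other strand, with GSTF2 (AT4G02520), a glutathione S-transferase gene. GSTF2 had 233, 252 and 224 counts in amiR-mterf2 and 45, 24 and 41 counts in Col-0, beside 1050, 1671 and 1440 counts of TOC159 in amiR-mterf2 and 847, 778 and 865 in Col-0. Whether strand was used in counting is not given in the sources used here, and the part of reads from the shared bases in the TOC159 values was not tested.

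TOC132, a housekeeping receptor, rose by a similar amount. It had 21.7, 19.7 and 21.7 CPM in amiR-mterf2 and 12.8, 11.5 and 11.4 CPM in Col-0, without overlap between the genotypes. Its log2 fold change was 0.82 ± 0.12 (adjusted p = 3.44e-04, edgeR quasi-likelihood, Benjamini-Hochberg). It shares 27 exon bases on its own strand and 76 on the other strand with its neighbours AT2G16630 and AT2G16650.

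TOC120, the closest relative of TOC132, was not called. It had 3.62, 2.83 and 3.53 CPM in amiR-mterf2 and 3.94, 3.93 and 3.09 CPM in Col-0. The genotypes overlapped, and the log2 fold change was -0.14 ± 0.23 (adjusted p = 0.682, edgeR quasi-likelihood, Benjamini-Hochberg). With 58 to 66 counts in the amiR-mterf2 libraries and 66 to 84 in the Col-0 libraries, it was measured on fewer counts than the other receptors. The log2 ratio of TOC132 to TOC120, a comparison added after their values had been seen, averaged 2.67 ± 0.11 in amiR-mterf2 and 1.71 ± 0.17 in Col-0, a 1.94-fold difference in the ratio (two-sided exact permutation p = 0.1, as small as this design allows).

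Among the large receptors, the share of the green-tissue isoform overlapped between the genotypes. TOC159 made up 70.8%, 78.4% and 75.3% of the counts on TOC159, TOC132 and TOC120 in amiR-mterf2, against 70.3%, 73.3% and 73.6% in Col-0. Replicate 1 of amiR-mterf2 lay among the Col-0 libraries. The log2 ratio of TOC159 to TOC132 plus TOC120 was 1.58 ± 0.29 in amiR-mterf2 and 1.40 ± 0.13 in Col-0, a difference of 0.19 (two-sided exact permutation p = 0.4, and 0.4 after adjustment). Set against TOC132 alone the difference was 0.01, and against TOC120 alone it was 0.97. TOC120 itself made up 4.18%, 2.72% and 3.45% of the large receptor counts in amiR-mterf2 and 6.98%, 6.79% and 5.62% in Col-0.

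**Figure D2:**
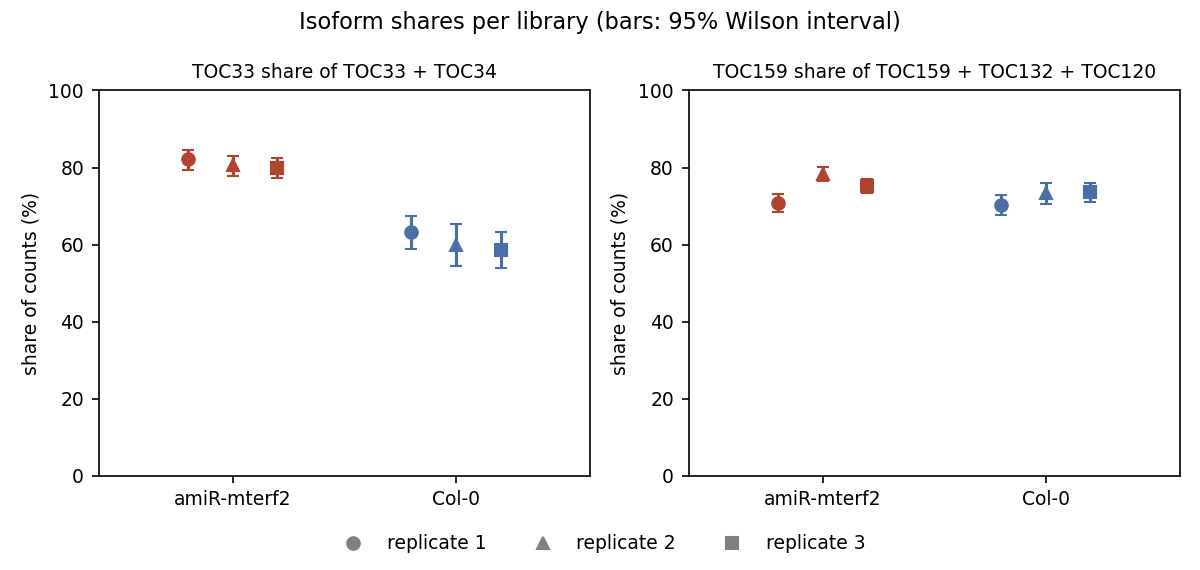
Share of counts (%, vertical axes from 0 to 100) held by TOC33 among TOC33 and TOC34 (left panel) and by TOC159 among TOC159, TOC132 and TOC120 (right panel), in each amiR-mterf2 library (left) and each Col-0 library (right), with bars for the 95% Wilson interval of the deposited counts. TOC33 holds 80.0% to 82.2% in the mutant and 58.6% to 63.3% in the wild type, while the TOC159 shares of the genotypes overlap.

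Taking all 5 receptors, the mean log2 CPM of TOC159 and TOC33 minus that of TOC132, TOC120 and TOC34 was 2.62 ± 0.15 in amiR-mterf2 and 1.67 ± 0.05 in Col-0. The difference of 0.95 was present without overlap between libraries (two-sided exact permutation p = 0.1, as small as this design allows, and 0.133 after Benjamini-Hochberg adjustment over the 4 ratios). Gene by gene, both green-tissue isoforms were called higher, and of the housekeeping isoforms TOC132 was called higher while TOC34 and TOC120 were not called. The summed root markers, given above and mostly BGLU23, were lower in the same amiR-mterf2 libraries, and their part in the isoform balance was not tested.

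TOC75-III, the channel that all of these receptors serve, had the highest adjusted p of the 6 genes called higher. It had 51.9, 51.3 and 50.0 CPM in amiR-mterf2 and 27.6, 48.3 and 30.4 CPM in Col-0. The mutant libraries lay within a narrow range, and Col-0 replicate 2 came close to them while the other Col-0 libraries were far lower. The log2 fold change was 0.53 ± 0.18 (adjusted p = 0.0424, edgeR quasi-likelihood, Benjamini-Hochberg). Leaving out Col-0 replicate 2 gave 0.82 (adjusted p = 2.61e-08), while leaving out Col-0 replicate 1 gave 0.38, which did not pass (adjusted p = 0.139, edgeR). The call was lost in 8 of 14 alternative settings, among them leaving out any 1 library other than Col-0 replicate 2.

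The inner envelope protein TIC110 had the smallest standard error of the 9. It had 72.1, 72.5 and 70.7 CPM in amiR-mterf2, against 33.9, 34.1 and 35.8 CPM in Col-0. Libraries of a genotype differed little, and every mutant library was far above every wild-type library, with a log2 fold change of 1.05 ± 0.10 (adjusted p = 1.54e-05, edgeR quasi-likelihood, Benjamini-Hochberg).

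TIC40, its co-chaperone partner, rose as well. It had 33.0, 36.4 and 37.1 CPM in amiR-mterf2 and 21.3, 18.0 and 18.9 CPM in Col-0, with a log2 fold change of 0.87 ± 0.12 (adjusted p = 1.92e-04, edgeR quasi-likelihood, Benjamini-Hochberg). Neither TIC110 nor TIC40 overlaps another annotated exon.

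TIC20-I, the channel-forming protein, was measured on few counts. It had 19, 20 and 24 counts in amiR-mterf2 and 19, 14 and 19 counts in Col-0, which is 1.11, 0.977 and 1.28 CPM against 0.892, 0.763 and 0.889 CPM. The log2 fold change of 0.40 ± 0.40 did not pass the test (adjusted p = 0.468, edgeR quasi-likelihood, Benjamini-Hochberg). Of its 1198 transcript bases, 922 are shared on the same strand with AT1G04945, so its level in both genotypes is uncertain.

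Per kilobase of transcript the order of the levels also differed between the genotypes. In amiR-mterf2, TOC33 was highest at 31.6 ± 2.45 CPM per kb, followed by TIC110 at 20.9 ± 0.262, TIC40 at 19.2 ± 1.19, TOC75-III at 17.8 ± 0.339 and TOC159 at 13.1 ± 1.89. TIC40 and TOC75-III overlapped across libraries, while the other neighbours in this order did not. In Col-0 the same 5 genes were closer together: TOC75-III had 12.4 ± 3.92 CPM per kb, TIC40 10.5 ± 0.931, TOC33 10.1 ± 1.70, TIC110 10.1 ± 0.312 and TOC159 7.29 ± 0.245, and the first 4 overlapped. The order below them was TOC34 (6.58 ± 0.220 in amiR-mterf2 and 5.77 ± 0.650 in Col-0) and then TOC132 (4.93 ± 0.276 and 2.79 ± 0.184 CPM per kb). TIC20-I (0.937 ± 0.128 in amiR-mterf2 and 0.708 ± 0.061 in Col-0) and TOC120 (0.930 ± 0.121 and 1.02 ± 0.137 CPM per kb) were lowest, and overlapped each other in amiR-mterf2. TOC33 thus stood above all others in the mutant and among 4 overlapping genes in the wild type.

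**Figure D3:**
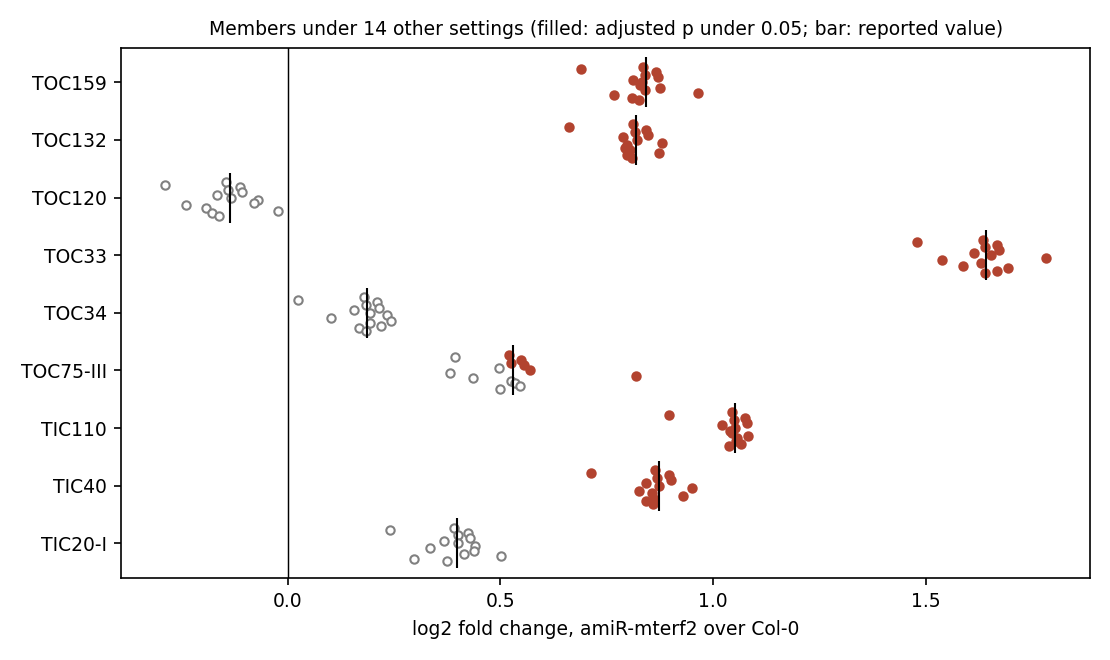
Log2 fold change, amiR-mterf2 over Col-0 (horizontal axis), of the 9 import genes under 14 other settings (points, filled where the adjusted p is under 0.05), with a vertical bar at the reported value. TOC33, TIC110, TIC40, TOC159 and TOC132 are filled throughout, TOC75-III is filled in 6 of the 14 settings, and TIC20-I, TOC34 and TOC120 in none.

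The wider import pathway held genes called in both directions. Of 37 other import genes, all tested, 12 were higher, 4 were lower and 21 did not pass, with a median log2 fold change of 0.13. The calls were read against the 18.1% and 18.2% of all genes called in each direction. With Col-0 replicate 2 left out, 16 were higher and 4 lower. In that fit SPL1 lost its call of lower (adjusted p = 0.0536, edgeR) and CLPC1 gained one (1.87e-06).

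Of the 12 other genes grouped under the inner envelope, TIC236 not included, 4 were higher and 2 lower. TIC214, TIC100 and TIC56, which form a large TIC complex with TIC20-I, were among the higher genes. TIC214, encoded in the plastid genome as ycf1, had 32011, 39026 and 35517 counts in amiR-mterf2, against 11822, 10582 and 11728 in Col-0, or 1891 ± 18.0 CPM against 560 ± 14.8 CPM and a log2 fold change of 1.76 ± 0.09 (adjusted p = 2.22e-07, edgeR quasi-likelihood, Benjamini-Hochberg). Part of ycf1 lies in the inverted repeat, where reads match a further partial copy. Since the study reported many plastid transcripts as higher in the mutant, the rise of TIC214 was not particular to an import gene. The nuclear gene TIC100 had 83.5 ± 7.59 CPM in amiR-mterf2 and 30.9 ± 4.01 CPM in Col-0, a log2 fold change of 1.44 ± 0.13. TIC22-III, an intermembrane space protein, rose by 1.18 ± 0.24, and TIC56, named here after its value was seen, by 0.46 ± 0.13. The call of TIC56 was lost without Col-0 replicate 1 or 3 or amiR-mterf2 replicate 3 (adjusted p = 0.0503 to 0.0893, edgeR). It was also lost with total counts without TMM (0.119).

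The lower genes of the inner envelope were TIC32 and TIC55, both linked to redox regulation of import. TIC32, a dehydrogenase-like protein, fell to 8.12 ± 1.77 CPM in amiR-mterf2, against 17.8 ± 1.37 CPM in Col-0, a log2 fold change of -1.13 ± 0.17 (adjusted p = 3.69e-04, edgeR quasi-likelihood, Benjamini-Hochberg). TIC55, a Rieske-type protein, had a log2 fold change of -0.59 ± 0.13 and was also called lower. TIC62, a further protein linked to redox regulation and named after its value was seen, was not called, at 0.16 ± 0.12. With Col-0 replicate 2 left out, TIC62 was called higher, at 0.26 (adjusted p = 0.0101, edgeR).

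Of the 9 other genes grouped under the outer envelope, TIC236 included as a bridge to the TIC complex, 1 was higher and 2 were lower. TOC64-III, a docking protein for chaperone-bound precursors, was called higher at 0.47 ± 0.13. SPL1, a relative of the ubiquitin ligase SP1 that acts on TOC proteins, and KOC1, a kinase of TOC receptors, were called lower at -0.82 ± 0.28 and -0.41 ± 0.13. The call of SPL1 was lost when any 1 library was left out (adjusted p = 0.0508 to 0.118, edgeR). That of KOC1 was lost when Col-0 replicate 1 or 3 or amiR-mterf2 replicate 1 or 2 was left out (0.0598 to 0.119). That of TOC64-III was lost without Col-0 replicate 3 (0.0545) or amiR-mterf2 replicate 2 (0.0648), and with total counts without TMM (0.0935). TIC236, which bridges the TOC and TIC complexes, had 30.6 ± 3.55 CPM in amiR-mterf2 and 23.9 ± 2.66 CPM in Col-0 and missed the threshold (log2 fold change 0.36 ± 0.13, adjusted p = 0.0530, edgeR quasi-likelihood, Benjamini-Hochberg). With Col-0 replicate 2 left out its adjusted p was 0.0344, and with Col-0 replicate 1 left out 0.0420 (edgeR). TOC90, the remaining member of the TOC159 family, was at 0.08 ± 0.19 and did not pass.

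Of 14 genes of the stroma and the import motor, 6 were higher and 0 lower. The largest rises were those of the plastid gene YCF2 (log2 fold change 1.87 ± 0.34), the chaperone CLPC2 (0.81 ± 0.15) and FTSHI5 (0.68 ± 0.14). FTSHI5 is a subunit of the FtsH-like motor to which YCF2 also belongs. CLPC1 was far more abundant than CLPC2, which had 17.6 ± 1.06 CPM in amiR-mterf2. It had 427 ± 31.4 CPM in amiR-mterf2 and 499 ± 93.2 CPM in Col-0. CLPC1 was not called (-0.23 ± 0.14, adjusted p = 0.232, edgeR). With Col-0 replicate 2 left out, CLPC1 was called lower, at -0.37, and cpHsc70-2 was called higher, at 0.24 (adjusted p = 1.87e-06 and 0.041, edgeR). YCF2 lies in the inverted repeat of the plastid genome, so its reads match both copies, and its 134, 132 and 181 counts in amiR-mterf2 and 26, 66 and 38 in Col-0 are uncertain. Of the transcription factors that act on TOC33 and other import genes, CIL was called higher at 1.76 ± 0.21, with 12.9 ± 1.89 CPM in amiR-mterf2 and 3.85 ± 1.12 CPM in Col-0 (adjusted p = 8.60e-05, edgeR quasi-likelihood, Benjamini-Hochberg). Its paralogue CIA2 had a log2 fold change of -0.16 ± 0.12 and was not called.

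**Figure D4:**
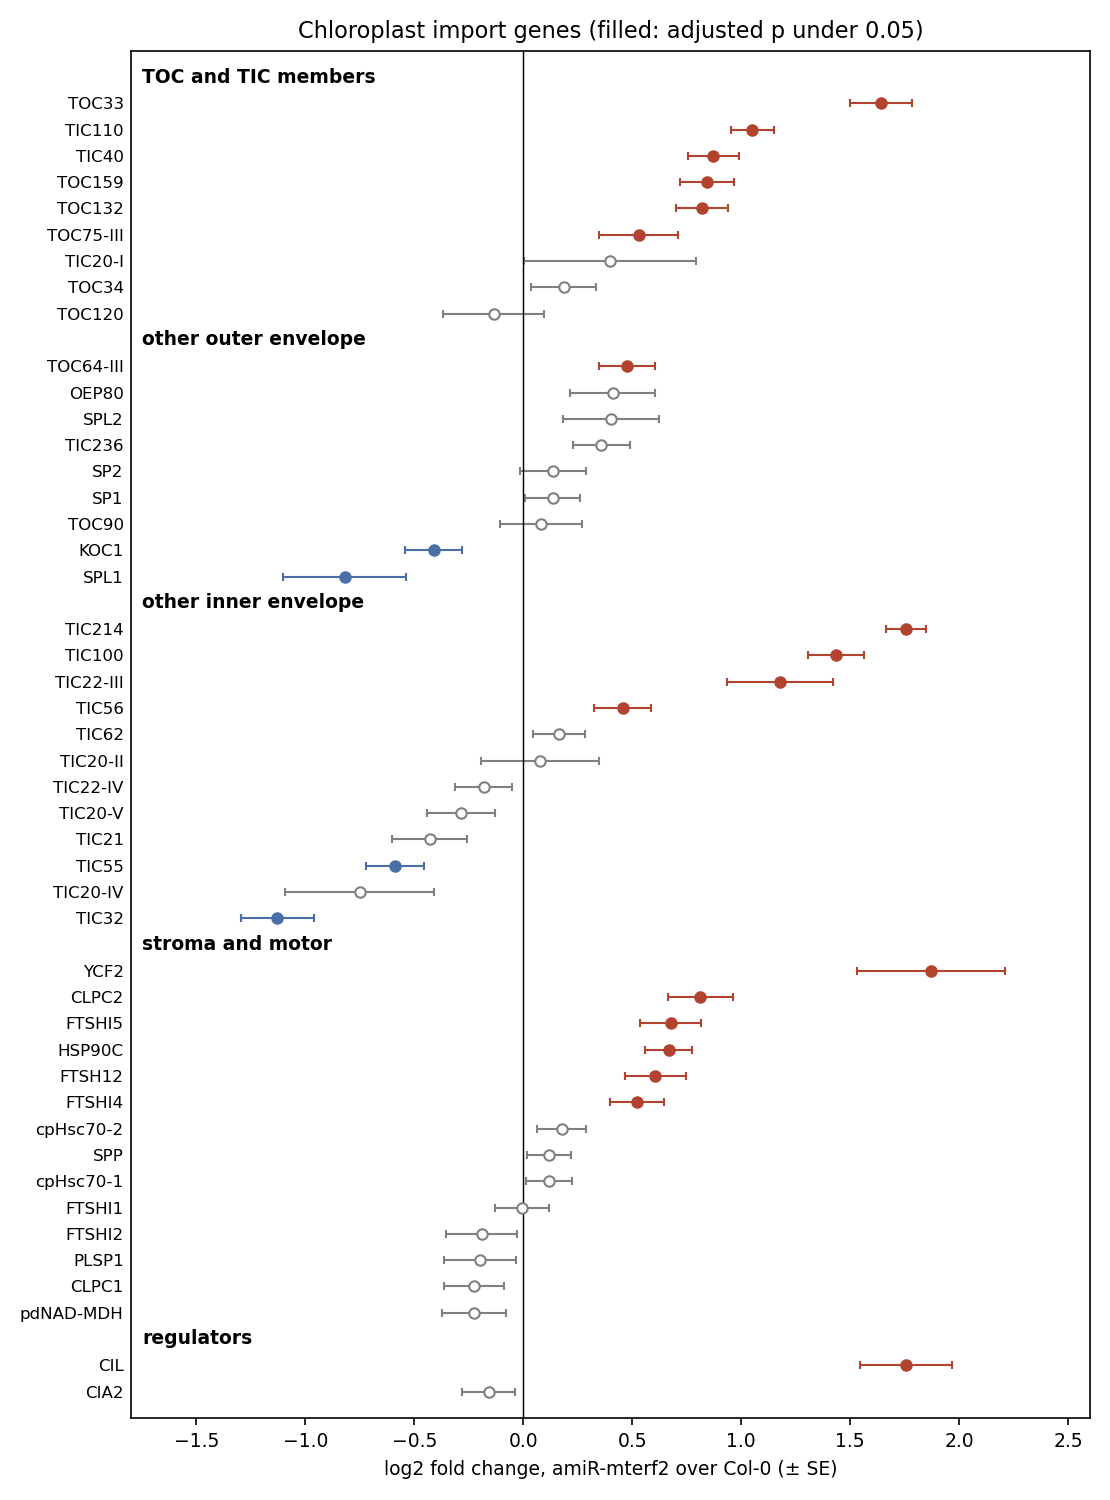
Log2 fold change, amiR-mterf2 over Col-0 (horizontal axis, ± SE), of the 9 TOC and TIC genes and of 37 other import genes. Genes are grouped by location or role, with TIC236, which bridges the TOC and TIC complexes, under the outer envelope. Points are filled for an adjusted p under 0.05. Of the 9 genes, 6 are filled on the higher side, against 12 of the other 37, and the 4 genes filled on the lower side are SPL1, KOC1, TIC55 and TIC32.

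The profiles of TOC33 and TOC159 over the 6 libraries were compared with those of 17723 other nuclear genes, by the root mean square difference of log2 CPM centred on each gene's mean. For TOC33 the nearest were GLYI4 (0.053), PARG2 (0.066) and AT5G66790 (0.068), and the nearest of the other TOC and TIC genes was TIC110, at rank 452. For TOC159 the nearest were LON2 (0.049), EMB2421 (0.070) and AT5G35735 (0.071), and TIC40 was the nearest of the TOC and TIC genes, at rank 69. These distances describe 6 libraries that share the contrast between genotypes.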

How the data were processed

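The authors deposited, per the labels and the file headers, raw counts of reads over the exons of each gene, 1 table per library, without normalization. The file headers name HISAT2, whereas the submitters' processing notes list Trimmomatic, FastQC, TopHat2 2.1.1, featureCounts and the build TAIR10, so the aligner is uncertain. The handling of strand, of read pairs and of reads with several matches is not given in the sources used here. rRNA had been depleted and read pairs sequenced.

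Genotype and replicate number came from the sample labels. Of the 36917 identifiers, 36632 matched the TAIR10.1 RefSeq annotation, which gave coordinates, lengths (median over annotated transcripts) and sequences. The members and gene lists were chosen with earlier results of these data known.

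Genes were kept by filterByExpr (minimum count 10, minimum total 15), scaled by TMM and compared with edgeR 4.0.16 (R 4.3.3), by its quasi-likelihood F test, with p-values adjusted by the Benjamini-Hochberg method over 17902 genes and a threshold of 0.05, all 6 libraries in 1 fit. Standard errors were taken as the absolute log2 fold change over the root of F. Isoform ratios were taken within libraries and compared by exact permutation tests (scipy 1.17.1). Profiles used log2 of CPM plus 0.5. The tests were tested on simulated data.

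Named genes were the 9 members, up to 3 largest called rises and falls in each other list, TIC236, CIA2, TOC90, TIC214 and MTERF2, and 3 nearest profiles each for TOC33 and TOC159. Alternatives were DESeq2 1.42.0 (test and size factors), total counts, nuclear scaling, other filters, a replicate block, each library left out, and other partners in the ratios. Halved counts and the TOC132 to TOC120 ratio were added after the data had been seen.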

Additional observations from a re-analysis of the deposited data

How the results depend on the processing

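Over 14 alternatives, 5 or 6 of the 9 import genes were called higher and 0 lower, the gene lost being TOC75-III, which kept its call in 6 (log2 fold change 0.38 to 0.82, adjusted p up to 0.139, edgeR and DESeq2 with Benjamini-Hochberg adjustment). It was lost with total counts, with at least 10 counts in every library, with halved counts, and without each library other than Col-0 replicate 2. TOC33 ranged between 1.48 and 1.78, TIC110 between 0.90 and 1.08, TIC40 between 0.71 and 0.95, TOC159 between 0.69 and 0.96 and TOC132 between 0.66 and 0.88. Of the other import genes, 8 to 16 were called higher. The number called lower was 4, and 5 with total counts without TMM (TIC21 added), 2 with the DESeq2 Wald test, 2 with no filter on low counts, and 2 to 4 over the fits without 1 library. SPL1 and KOC1 were lost with DESeq2 (adjusted p = 0.105 and 0.0687, DESeq2). Total counts without TMM moved the median of all genes to -0.17 and the calls over all genes to 2129 higher and 4148 lower, beside 3248 and 3261 (the cause was not tested). TIC236 passed with nuclear scaling (adjusted p = 0.0364, edgeR) and with no filter on low counts (0.0368), beside the fits without Col-0 replicate 1 or 2 given above. Its highest adjusted p was 0.358, with total counts without TMM (edgeR). The same-numbered libraries correlated at 0.03, 0.02 and -0.01 in their deviations and share only a number. With the replicate block, 6 of the 9 genes were called higher, as were 12 of the other import genes. Again 4 were called lower, but SPL1 lost its call (adjusted p = 0.0693, edgeR) and TIC21 gained one (0.0416). For the ratio of TOC33 to TOC34 sign flips within pairs gave a difference of 1.46 (exact test, p = 0.25, the smallest possible). That ratio ranged between 1.40 and 1.54 without 1 library, the ratio for TOC159 between 0.05 and 0.34, and the 5-receptor contrast between 0.87 and 1.01, or 1.01 with TOC90 added. Depth limits TIC20-I and TOC120 most, with 14 to 24 and 58 to 84 counts per library.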
